A study of Mus musculus with 2 samples.

Results

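Distal intronic EP300 peaks are places inside the introns of protein-coding genes, away from any promoter, where the coactivator EP300 was found on chromatin. They were taken from the authors' optimal peak list of newborn mouse heart by position alone. A member has its summit, the highest point of the peak, 1 to 100 kb from the nearest transcription start site (TSS) of a protein-coding transcript, inside a protein-coding gene and outside protein-coding exons. The gene that holds the summit is called the host gene. The rule found 5122 members among the 17372 peaks of the list, or 29.8% (95% exact interval 29.2 to 30.5%) of the 17169 peaks on chromosomes 1 to 19. The peaks most like them are the 4055 intergenic peaks at the same distances from a TSS. The rest of the list on these chromosomes were 5739 peaks within 1 kb of a TSS, 496 distal peaks in exons and 1757 peaks beyond 100 kb.

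Chromatin bound by EP300 was precipitated and sequenced (ChIP-seq) from whole heart of mice of the strain labelled B6NCrl at postnatal day 0, with no treatment named. There were 2 libraries, replicates 1 and 2 of 1 group, and no second tissue, age or treatment was compared. The labels give both libraries 1 biosample and 1 donor identifier, so their differences may be technical. Because the tissue is a mixture of cell types, a peak carried by few cells and a weak peak carried by many cannot be told apart.

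EP300 is a histone acetyltransferase that does not read DNA letters itself. It is brought to enhancers by transcription factors bound there, where it acetylates histones, and its binding is widely used to map active enhancers. Introns are a common home of enhancers, and an intronic enhancer may act on its host gene or on a neighbour. In heart muscle, factors of the GATA, MEF2, TEAD, HAND and NKX2 families, together with serum response factor, are known to act at enhancers. The glucocorticoid receptor, which binds palindromic response elements as a pair, is known to act in the heart around birth.

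The letters under the summits of chosen members are given as a description. Given first is the + strand of 200 bases around the summit of the strongest member in each of the first 6 host genes by signal. After them comes the strongest member of the lists of sarcomere, cardiac transcription factor, calcium handling, metabolic and endothelial genes. All are read from the GRCm38 (mm10) reference. Capitals mark matches, on either strand, to motifs that were called more frequent at summits than in flanks and were at least 1.5 times as frequent there.
Per1, chr11:69096971-69097170: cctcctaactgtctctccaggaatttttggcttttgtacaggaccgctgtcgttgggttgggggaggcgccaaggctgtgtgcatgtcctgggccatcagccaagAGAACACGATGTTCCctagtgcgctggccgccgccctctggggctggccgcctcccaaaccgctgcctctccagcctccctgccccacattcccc
Klf13, chr7:63896966-63897165: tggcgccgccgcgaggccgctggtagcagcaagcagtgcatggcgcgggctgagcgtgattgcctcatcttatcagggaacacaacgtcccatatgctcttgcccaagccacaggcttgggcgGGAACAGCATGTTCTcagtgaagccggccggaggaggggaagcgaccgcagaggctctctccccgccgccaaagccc
Gas7, chr11:67667749-67667948: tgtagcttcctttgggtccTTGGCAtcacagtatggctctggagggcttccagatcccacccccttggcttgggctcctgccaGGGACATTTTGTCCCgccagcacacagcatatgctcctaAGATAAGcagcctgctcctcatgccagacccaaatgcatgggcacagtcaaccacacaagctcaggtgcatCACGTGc
Timp3, chr10:86341651-86341850: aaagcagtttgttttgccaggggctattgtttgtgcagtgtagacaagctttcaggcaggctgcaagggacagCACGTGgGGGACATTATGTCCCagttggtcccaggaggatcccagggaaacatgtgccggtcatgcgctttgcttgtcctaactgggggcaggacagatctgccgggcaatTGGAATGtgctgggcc
Zbtb16, chr9:48740189-48740388: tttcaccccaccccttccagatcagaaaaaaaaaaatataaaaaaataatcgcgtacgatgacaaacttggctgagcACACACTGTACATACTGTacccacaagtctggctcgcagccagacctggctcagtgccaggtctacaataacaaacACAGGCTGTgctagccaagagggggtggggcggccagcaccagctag
Per2, chr1:91436395-91436594: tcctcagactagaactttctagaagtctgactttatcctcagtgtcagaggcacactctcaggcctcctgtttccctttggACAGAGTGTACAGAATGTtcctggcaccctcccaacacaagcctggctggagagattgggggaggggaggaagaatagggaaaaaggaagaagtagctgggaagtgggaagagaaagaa
Ldb3, chr14:34574105-34574304: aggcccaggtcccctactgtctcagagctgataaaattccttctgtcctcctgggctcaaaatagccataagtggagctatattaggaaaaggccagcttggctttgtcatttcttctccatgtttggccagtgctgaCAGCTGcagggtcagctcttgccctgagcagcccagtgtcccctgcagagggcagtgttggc
Myocd, chr11:65209539-65209738: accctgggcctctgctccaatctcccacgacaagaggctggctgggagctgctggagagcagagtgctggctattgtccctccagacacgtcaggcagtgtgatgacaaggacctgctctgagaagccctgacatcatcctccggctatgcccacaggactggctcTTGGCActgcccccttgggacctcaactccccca
Kcnh2, chr5:24337450-24337649: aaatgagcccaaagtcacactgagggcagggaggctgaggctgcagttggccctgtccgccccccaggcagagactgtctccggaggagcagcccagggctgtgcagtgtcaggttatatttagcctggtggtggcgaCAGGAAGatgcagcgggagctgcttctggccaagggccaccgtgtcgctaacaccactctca
Mlycd, chr8:119399366-119399565: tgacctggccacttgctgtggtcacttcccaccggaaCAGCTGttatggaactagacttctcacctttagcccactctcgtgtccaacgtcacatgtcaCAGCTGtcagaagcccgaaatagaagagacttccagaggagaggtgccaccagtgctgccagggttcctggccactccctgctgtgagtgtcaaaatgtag
Erg, chr16:95439264-95439463: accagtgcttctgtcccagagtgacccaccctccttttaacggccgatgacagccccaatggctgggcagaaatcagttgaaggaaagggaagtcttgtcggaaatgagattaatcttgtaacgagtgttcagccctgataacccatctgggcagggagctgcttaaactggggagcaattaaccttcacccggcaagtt

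The first 4 windows each hold a full response element of steroid receptors near the middle. The Zbtb16 and Per2 windows hold the core of that element alone. The windows in Ldb3 and Mlycd hold the E-box CAGCTG, the window in Kcnh2 holds an ETS site and the window in Myocd an NFI motif. The Erg window holds no match to a motif of this kind. A match is a description of letters and no measured site of a factor.

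The response elements themselves, 15 bases long, are shown for 7 members of high signal that hold one. All were found with the same pattern, so the likeness between them is set in part by the search. They are read 5′ to 3′ on the + strand of GRCm38, with the 2 arms of the palindrome in capitals. Sdk2 and Fkbp5 were chosen here by their signal among members with the element.
Per1, chr11:69097076-69097090: AGAACAcgaTGTTCC
Klf13, chr7:63897089-63897103: GGAACAgcaTGTTCT
Gas7, chr11:67667832-67667846: GGGACAtttTGTCCC
Timp3, chr10:86341731-86341745: GGGACAttaTGTCCC
Zbtb16, chr9:48737601-48737615: GGTACAgtgTGTTCT
Sdk2, chr11:113807287-113807301: AGGACAttcTGTCCT
Fkbp5, chr17:28420321-28420335: AGAACAcccTGTTCT

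In the elements of Gas7, Timp3, Sdk2 and Fkbp5 the second arm is the exact reverse complement of the first. The element of Per1 is centred 12 bp from the summit. In the 7 elements the distance of the centre from the summit ran up to 40 bp, in Zbtb16.

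The deposited signal, a peak height relative to control by a formula that is not stated, ranks peaks within a list. The strongest member lay in intron 1 of Per1, whose product represses the circadian clock and which is also a classical target of the glucocorticoid receptor. Its summit lay 1854 bp from the nearest TSS, that of Per1. Its signal was 299.8 in the optimal list, 161.1 in the replicate 1 list, where it ranked 3, and 139.3 in the replicate 2 list, where it ranked 1. The member in the single intron of Klf13, a zinc finger transcription factor, had a signal of 288.3, with 157.8 in replicate 1 and 116.3 in replicate 2. The member of signal 281.5 lay where the gene bodies of Gas7, a cytoskeletal protein, and Glp2r overlap, with 161.1 in replicate 1 and 109.3 in replicate 2. These 3 peaks ranked among the 14 strongest of both replicate lists. The nearest TSS was that of E030018B13Rik for the member in Klf13 and that of Rcvrn for the member in Gas7.

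The member of signal 280.5 lay in Timp3, an inhibitor of matrix metalloproteinases that itself sits inside Syn3, with 144.4 in replicate 1 and 136.9 in replicate 2. Zbtb16, the gene of a zinc finger repressor that glucocorticoids induce in many tissues, held 2 of the 10 strongest members. Their signals were 250.1, with 136.3 in replicate 1 and 114 in replicate 2, and 231.1, with 137.8 in replicate 1 and 87.1 in replicate 2. The second of them carries the Zbtb16 response element printed above. Per2, the paralogue of Per1, held a member of signal 212, with 117.8 in replicate 1 and 92.8 in replicate 2.

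The rest of the 10 strongest lay in Rbm20, Kcng2 and Hif3a. Rbm20, which directs the splicing of titin, held a member of signal 209.5 in intron 1, with 119 in replicate 1 and 94.3 in replicate 2. Kcng2, a modulatory subunit of potassium channels, held one of signal 202.7, with 107 in replicate 1 and 89.2 in replicate 2. Hif3a, a hypoxia-inducible factor, held one of signal 197.3, with 107.5 in replicate 1 and 90.6 in replicate 2. Each of the 10 was stronger in replicate 1 than in replicate 2, on scales that were not matched between the lists. Members made up 5 of the 10, 26 of the 100 and 284 of the 1000 strongest peaks of the optimal list. The last is 28.4%, against 29.8% of all peaks on chromosomes 1 to 19. The highest signal of those chromosomes, 310.9, belonged to a peak beyond 100 kb.

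Across all members the signal had a median of 30.4, with quartiles of 22.9 and 42.6 and a range of 6.92 to 299.8. Only 98 members reached 100, and 235 members, or 4.59%, lay below 10. The intergenic peaks had a median of 31.5, quartiles of 23.4 and 44.8 and a highest value of 230.7. In the highest quintile of the whole list by signal, above 48.0, stood 18.9% of the members and 21.1% of the intergenic peaks (odds ratio 0.869, p = 0.00778, two-sided Fisher's exact test). The call was lost at 1 to 10 kb alone and among peaks with a −log10 q of at least 2. Tests of this kind run over peaks, which are not independent animals, so their p-values speak of positions in these 2 libraries.

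The full response element of steroid receptors (GRE) was most frequent among the strongest members. A GRE was found in 5 of the 10 strongest members, 8 of the 50 strongest, 14 of the 100 strongest and 28 of the 500 strongest. Among all 5122 it was found in 102, or 1.99% (95% exact interval 1.63 to 2.41%), spread over 100 host genes. From the weakest to the strongest quintile of the members by signal its share was 0.683, 1.27, 1.46, 2.34 and 4.20%. In the strongest quintile 43 of 1025 members held it, against 7 of 1025 in the weakest (odds ratio 6.37, adjusted p = 1.34e-06, Fisher's exact test with Benjamini-Hochberg adjustment over 35 motifs).

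The same order was seen in each library ranked on its own. With the 4504 members that have a peak in the replicate 1 list ranked by that list's signal, a GRE stood in 4.55% of the strongest quintile and 0.777% of the weakest (odds ratio 6.09, adjusted p = 1.58e-05, Fisher's exact test). With the 4096 matched to replicate 2, the shares were 4.40% and 1.22% (odds ratio 3.72, adjusted p = 0.00138, Fisher's exact test). Members with a GRE had a median signal of 41.5, in a range of 7.07 to 299.8, and the 5020 without one had a median of 30.3 and a range of 6.92 to 250.1. Both replicates held 69.6% of the members with a GRE and 41.6% of those without. Being held by both largely follows the signal, so this contrast is no separate observation. The centre of the element lay a median of 22.5 bp from the summit, and in 53.9% it lay within 25 bp. In flank windows that hold one, the median was 54 bp from the window's centre and 25% lay within 25 bp, over only 12 windows.

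**Figure D1:**
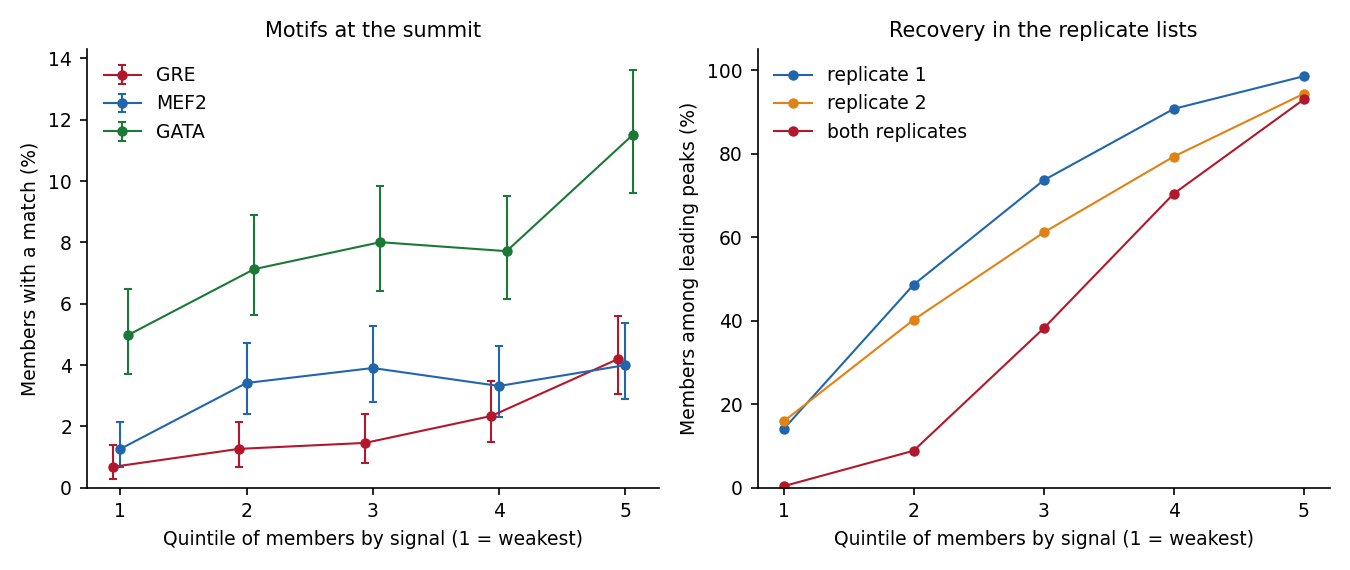
Left, share of members with a GRE, MEF2 or GATA match in the summit window (percent, points with 95% exact intervals) by quintile of signal from weakest to strongest. Right, share of members (percent) held by replicate 1, by replicate 2 and by both, by the same quintiles. Among leading peaks both replicates held 93.0% of the strongest and 0.390% of the weakest quintile, against 95.02% and 25.2% with peaks of any rank, and the GRE share was highest in the strongest quintile, at 4.20%.

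Most of the motifs searched were more frequent at the summits than beside them. Of 35 motifs searched on both strands in windows of 200 bases, 24 were more frequent at member summits than in windows of the same length 1 kb downstream, and 1 was less frequent. The share called is 71.4% (adjusted p of at most 0.05, exact sign test on members with a match in 1 of the 2 windows, Benjamini-Hochberg over the 35). The motifs were chosen with earlier results of these data known, so this is no share of an unselected set. The GC content of summit and flank windows was not compared, and its part in these calls was not tested. The largest ratio was that of the GRE, found in 1.99% of summits and 0.234% of flanks, or 8.50 times as often (adjusted p = 1.13e-18, exact sign test). The MEF2 site stood in 3.18% of summits and 0.410% of flanks, a ratio of 7.76 (adjusted p = 5.75e-28, exact sign test). The order of these 2 is not firm. Without replicate 2 the MEF2 ratio was 12.4, and in the conservative list 12.6, while with upstream flanks the GRE ratio was 14.6 and in 300 bp windows 5.58. The GATA site (AGATAAG) stood in 7.87% of summits and 2.75% of flanks, a ratio of 2.86 (adjusted p = 4.13e-31, exact sign test). The TEAD site (CATTCCA) stood in 6.60% of summits and 3.05% of flanks, a ratio of 2.17 (adjusted p = 3.72e-17, exact sign test).

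Short, common sites gave the largest numbers of members. CAGCTG, the class A E-box of basic helix-loop-helix factors, stood in 20.9% of summits and 10.4% of flanks (adjusted p = 1.06e-47, exact sign test). The ETS site CAGGAAG, of the kind known from endothelial and blood cells, stood in 18.8% of summits and 8.30% of flanks (adjusted p = 2.51e-54, exact sign test). The NFI motif TTGGCA stood in 19.1% of summits and 9.63% of flanks, and the MEIS site TGACAG in 22.4% of summits and 15.1% of flanks. Further motifs called higher were the PU.1 site (AGAGGAAGT) with 1.13% of summits and 0.351% of flanks, the CTCF site with 0.683% and 0.137%, and the CArG box of serum response factor with 1.91% and 1.07%. The PU.1 ratio of 3.22 was 1.87 without replicate 1, and the CTCF ratio of 5 was 2.82. The HAND E-box CATCTG reached 18.3% of summits and 15.9% of flanks and the NKX2 site TCAAGTG 4.02% and 3.09%, both called, the HAND site not in the conservative list (adjusted p = 0.141, exact sign test). The 1 motif called lower was RUNX (TGTGGTT), in 3.57% of summits and 5.39% of flanks.

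The remaining motifs called higher were the E-box CACGTG, the second ETS site CCGGAAG, the AP-1 site TGANTCA, the CREB site TGACGTCA, the core ACANNNTGT, the forkhead site TGTTTAC, the SOX site ACAAAGG, the STAT site TTCNNNGAA, the KLF site CCACACCC, the SP site GGGGCGGG and the RBPJ site GTGGGAA. Not called were the T-box site AGGTGTGA, in 1.11% of summits and 1.09% of flanks, and the IRF site AANNGAAA, in 18.8% and 19.7%. The others not called were ERR (TCAAGGTCA), the D-box TTATGTAA, YY1 (CAAGATGGC), NRF1 (GCGCATGCG), the octamer ATTTGCAT, HNF4 (CAAAGTCCA), HNF1 and the DR1 repeat of PPAR and RXR. Every GRE also holds the core, so their counts overlap. The PU.1 and ETS patterns share letters, but no single site can match both. No HNF1 match was found in either kind of window, which says nothing of the factor.

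**Figure D2:**
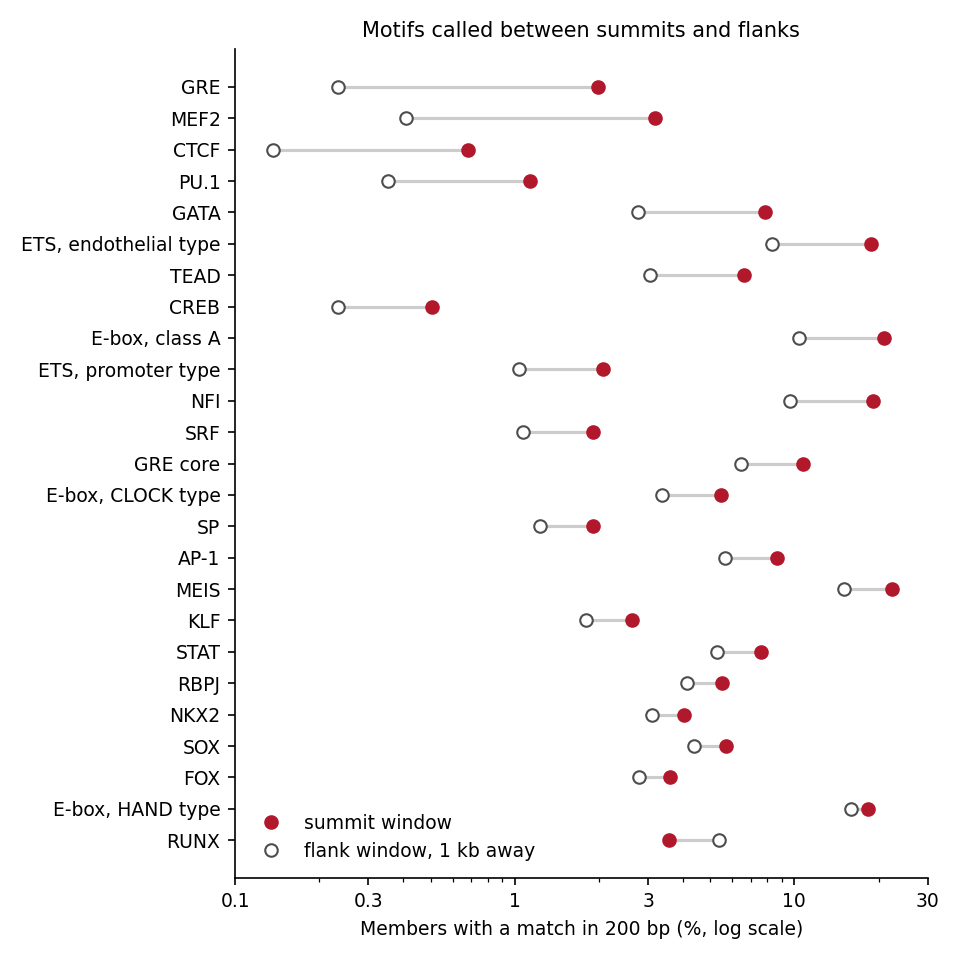
Share of members with each motif (percent, log axis) in the 200 base summit window and in the flank window 1 kb downstream, for the 25 motifs called between these windows. The GRE and MEF2 sites show the widest gaps, at 8.50 and 7.76 times the flank share (MEF2 at 12.4 without replicate 2), and RUNX is the motif with the higher flank share.

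Several motifs besides the GRE differed between strong and weak members. Between the strongest and the weakest quintile, 14 of the 35 motifs were called, a share of 40%, with 13 higher in the strongest. The E-box CAGCTG stood in 26.2% of the strongest and 14.4% of the weakest quintile (odds ratio 2.11, adjusted p = 1.25e-09, Fisher's exact test). The GATA site stood in 11.5% and 4.98% (odds ratio 2.48, adjusted p = 9.53e-07, Fisher's exact test), and the MEF2 site in 4% and 1.27% (odds ratio 3.24, adjusted p = 5.61e-04, Fisher's exact test). Among peaks with a −log10 q of at least 2 the number called was 3, and the GATA and MEF2 calls were lost. The MEF2 call was lost as well without replicate 2 and for merged sites. Ranked by replicate 1 alone 8 motifs were called and by replicate 2 alone 6. The E-box and GATA were called in both rankings, and MEF2 in neither (adjusted p = 0.194 and 0.160, Fisher's exact test). The IRF site ran the other way, with 146 of 1025 in the strongest and 210 of 1025 in the weakest quintile (odds ratio 0.645, adjusted p = 8.14e-04, Fisher's exact test). It was called in the ranking by replicate 1 and not in that by replicate 2 (adjusted p = 0.121, Fisher's exact test). The GC content of the windows moved with signal, at a median of 51.5% in the strongest quintile and 48.5% in the weakest, and its part in these differences was not tested.

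Between members and intergenic peaks 7 of 35 motifs were called, a share of 20%. Higher at members were the HAND E-box with 18.3% against 15.3% (adjusted p = 0.00144), MEIS with 22.4% against 19.6% (adjusted p = 0.00949), GATA with 7.87% against 6.29% (adjusted p = 0.0266), the core of the GRE with 10.7% against 8.95% and NFI with 19.1% against 16.9% (adjusted p = 0.0318 for both), all by Fisher's exact test. None of these 5 was called in the conservative list, and none among peaks called without replicate 1. Lower at members were the ETS site CCGGAAG, known from promoters, with 2.07% against 4.04% (adjusted p = 1.20e-06, Fisher's exact test), and the SP site with 1.91% against 3.21% (adjusted p = 0.00144, Fisher's exact test). At 1 to 10 kb alone both of these calls were lost, and with the TSSs of all transcripts the SP call. The full GRE stood in 1.99% of members and 1.75% of intergenic peaks, a difference that was not called (adjusted p = 0.688, Fisher's exact test).

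Start sites of long noncoding RNAs were rarer at members than at intergenic peaks. Within 1 kb of a member summit such a site stood in 1.70%, against 7.42% at intergenic summits (odds ratio 0.216, p = 1.18e-42, Fisher's exact test). The shares of intronic and intergenic bases this near such a site were not compared. The test therefore cannot separate a property of the peaks from where the annotation places these start sites. The rule screens out the start sites of protein-coding transcripts only. Without the peaks near a noncoding start site, the ETS site CCGGAAG and the SP site were still called lower at members, with odds ratios of 0.575 and 0.643 (adjusted p = 9.62e-04 and 0.0236, Fisher's exact test). Summits inside repeats made up 9.24% of members and 8.85% of intergenic peaks (p = 0.534, Fisher's exact test), and the median GC content of the windows was 50.5% for members and 51% for intergenic peaks.

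Introns held more peaks per base than intergenic DNA over 1 to 100 kb from a TSS. There were 7.51 members per Mb of intron, against 6.22 peaks per Mb of intergenic DNA, a ratio of 1.21. At 1 to 5 kb from a TSS the densities were 10.5 and 8.61 per Mb, and at 50 to 100 kb they were 5.48 and 5.09 per Mb. In the 3 bins between, the ratios were 1.07, 1.20 and 1.16. At 5 to 10 kb introns held 58.6% of the peaks (95% exact interval 55.9 to 61.2%) and 56.8% of the bases, and at 50 to 100 kb 44.0% of the peaks (41.7 to 46.4%) and 42.2% of the bases, so that in these 2 bins the interval includes no difference. Bases that cannot be mapped were not taken out beyond gaps in the sequence, so a part of the difference may lie in the DNA that reads can reach, which was not tested.

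First introns were denser in members than later introns. Taking intron 1 of the longest transcript of each host, there were 9.03 members per Mb of first introns and 6.87 per Mb of later introns, a ratio of 1.32. Close to the TSS, at 1 to 5 kb, the densities were 11.7 and 9.10 per Mb. At 50 to 100 kb they were 5.62 and 5.51 per Mb, a ratio of 1.02. At 1 to 5 kb the ratio was 1.281, and in the bins between it was 1.255, 1.205 and 1.233. In each bin the ratio was below the 1.32 over all distances. By intron number, 1757 members (34.3%) lay in intron 1, 971 in intron 2, 520 in intron 3 and 1726 further along, and 148 in no intron of that transcript.

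**Figure D3:**
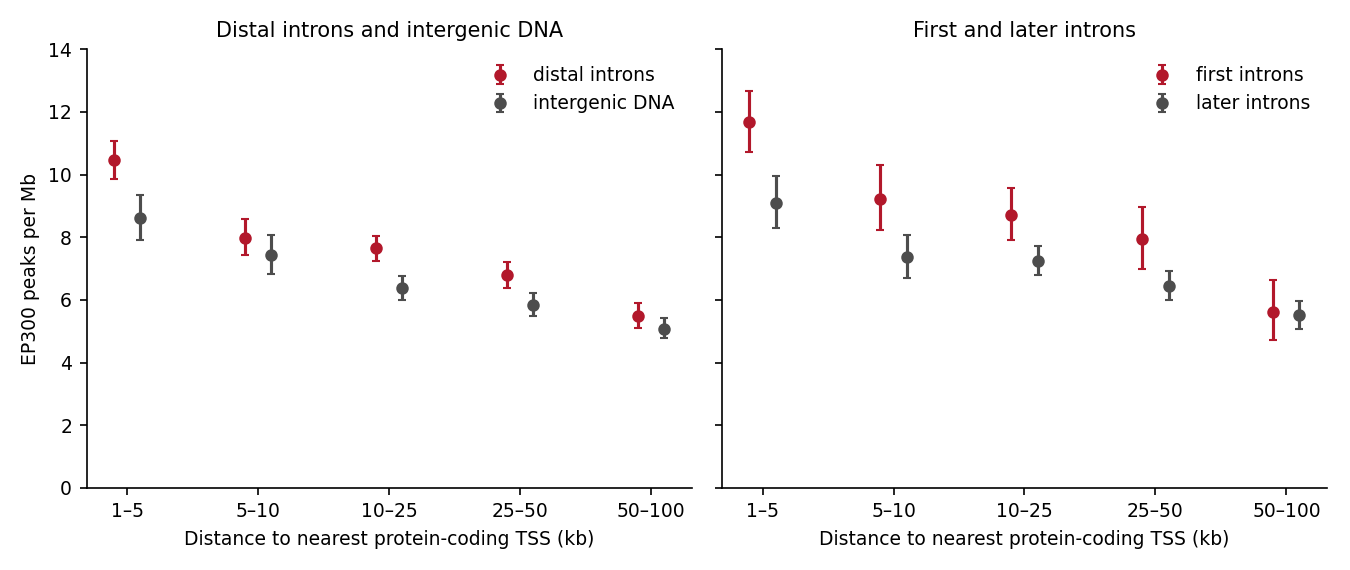
Peaks per Mb of available sequence by distance to the nearest protein-coding TSS (kb), with bars for 95% exact intervals from the number of peaks. Left, distal introns beside intergenic DNA, and right, first introns beside later introns. The gap between introns and intergenic DNA is within counting error at 5 to 10 kb and at 50 to 100 kb, and the gap between first and later introns is smallest at 50 to 100 kb, at 5.62 and 5.51 per Mb.

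Members of first introns were less often held by both replicates than those of later introns. The 1718 members that lie in first introns only had a median signal of 29.6, and the 3210 in later introns only 30.8, while the median distance to a TSS was 9449 bp and 20013 bp. In the highest quintile of the list stood 17.4% of first-intron and 19.6% of later-intron members (odds ratio 0.865, p = 0.0611, Fisher's exact test). Both replicates held 39.1% of first-intron and 43.9% of later-intron members (odds ratio 0.821, p = 0.00121, Fisher's exact test). At 1 to 10 kb from a TSS those shares were 35.2% and 43.1% (p = 6.21e-04, Fisher's exact test), and at 10 to 100 kb they were 43.2% and 44.2% (p = 0.654, Fisher's exact test). No motif of 35 was called between first and later introns, a share of 0%, and 3 had an unadjusted p under 0.05 by Fisher's exact test.

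The share of members held by both replicates followed the signal, which the authors took from the same reads and which the definition used here largely fixes. A member counts as held by a replicate where a summit among that replicate's 17372 strongest peaks lies within 100 bp. Replicate 1 held 65.1% of members and replicate 2 held 58.2%. Both held 2160, or 42.2% (95% exact interval 40.8 to 43.5%), against 40.9% of all peaks on these chromosomes and 44.8% of intergenic peaks (odds ratio of members to intergenic peaks 0.897, p = 0.0109, Fisher's exact test). That call was lost in the conservative list, at a −log10 q of at least 2, at 10 to 100 kb alone and with longer replicate lists. Replicate 1 alone held 1175 members, replicate 2 alone 820 and neither 967, or 18.9%.

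By quintiles of signal from weakest to strongest, both replicates held 0.390, 8.89, 38.2, 70.4 and 93.0% of members. With a peak of any rank in each replicate list, the shares were 25.2, 65.6, 80.1, 87.7 and 95.02%. In the weakest quintile, with signals of 6.92 to 21.2, 70.4% were held by neither among the leading peaks. Among the 2160 shared members the Spearman rank correlation of the 2 signals was 0.572 and Pearson's r was 0.774, given as a description over peaks of 2 libraries. The median offset of summits was 11 bp in replicate 1 and 16 bp in replicate 2. A deposited −log10 q of at least 2 was reached by 2908 members, or 56.8%, against 57.7% of all peaks.

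**Figure D4:**
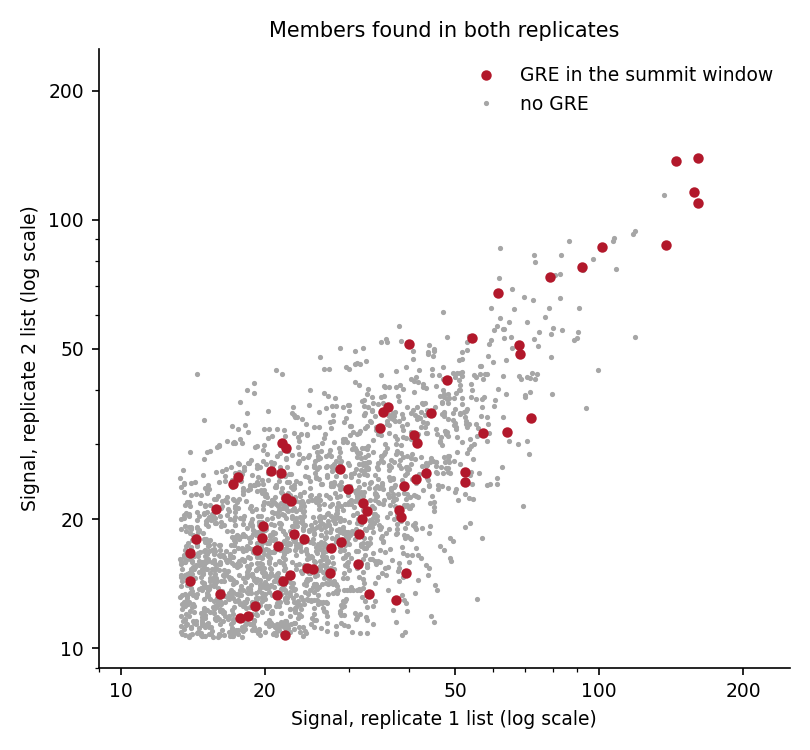
Signal in replicate 1 and in replicate 2 (authors' signal value, log axes) for the 2160 members held by both, with members that hold a GRE marked. Over all the points the Spearman rank correlation is 0.572, and members with a GRE reach the highest values on both axes.

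The members fell in 2354 host genes, most of which held few. A single member was found in 1180 hosts, 2 to 4 in 956 and 5 or more in 218, and those 218 held 1613 members, or 31.5%. Calls lay close together, with 793 members (15.5%) within 1 peak width (496 bp) of the member before. Joined at that distance, the members form 4329 sites. A summit lay at a median of 44.9% of the length of its gene, with 36.7% in the leading and 27.9% in the last of 3 equal parts.

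Tns1, a tensin that links integrins to actin, held 33 members at 28 sites in its 214.2 kb, with a median signal of 38.5 and a highest of 123.2. Ablim1, an actin-binding LIM protein, held 22 at 17 sites, up to 60.4. Arhgap26, a regulator of small GTPases that the annotation gives as 2 gene models, held 23, of which 11 had it as the nearest gene. Per 10 kb of gene, Tns1 held 1.54 members and Ablim1 0.780.

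Myh6, the alpha myosin heavy chain of heart muscle, was the most crowded of the 10 hosts with most members. It held 20 members at 11 sites in 25 kb, or 8 per 10 kb. Their signals ranged from 7.75 to 76.1 with a median of 22.8, and 5 of the 20 were held by both replicates. Rbm20 and Hspg2, which encodes the basement membrane proteoglycan perlecan, each held 16 members at 12 sites, and 14 of the 16 in each lay in the first intron. Cuedc1 held 15, of which 6 had it as the nearest gene.

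Gm20388 and Fgfr2 were hosts by annotation rather than by nearness. Gm20388 held 60 members, more than any other, but its model spans 4435 kb and holds 71 whole protein-coding genes, and it was the nearest gene of 0 of the 60. The model of Fgfr2, a fibroblast growth factor receptor, spans 2961 kb with 29 genes inside and was nearest to 0 of its 18 members. There were 41 models with 5 or more genes inside, and 34 members, or 0.664%, had no other host.

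Lists of heart genes had larger shares of hosts than all genes together, given here as a description with no test. All the gene lists were chosen with earlier results of these data known, so their shares are not independent of them. Of 30 sarcomere and Z-disc genes 21 were hosts, or 70%, with 85 members and a median of 2 per gene, against 12% of all 19465 protein-coding genes with an intron, whose median was 0. Myh6 and Ldb3, a Z-disc protein with 10 members up to a signal of 119.1, led the list. For calcium handling and ion channels it was 15 of 24, with 57 members. Jph2, which ties the sarcoplasmic reticulum to the cell membrane, held 6 up to 68.5, and Cacnb2, a subunit of the L-type calcium channel, held 6 up to 43.4.

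Of the cardiac transcription factors 12 of 22 were hosts, with 53 members. Myocd, the coactivator of serum response factor, held 10 up to 125.1, and Gata6 held 7 up to 42.8. Among genes of fatty acid oxidation and mitochondrial energy it was 14 of 25, with 31 members. The coactivators Ppargc1a and Ppargc1b held 5 each, up to 58.4 and 40.0, and Ppargc1b was the nearest gene of 1 of its 5. Mlycd, the malonyl-CoA decarboxylase whose window is printed above, held the strongest of this list at 139.5, with 65.8 in replicate 1 and 68.9 in replicate 2. Of the glucocorticoid receptor targets 12 of 20 were hosts, with 60 members, led by Tns1 and Zbtb16. A GRE stood in 6 of the 60, or 10%, against 1.99% of all members. Like the other lists, this one was chosen with earlier results of these data known, so its shares are not independent of them. The introns of this list had a median summed length of 10.7 kb per gene, against 16.0 kb over all genes.

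Endothelial and endocardial genes were hosts in 16 of 28 cases, with 57 members. Fli1, an ETS factor of endothelium, held 7 up to 70.3, all in the first intron, and the receptor Notch1 held 7 up to 60.1. Of the YAP and TEAD targets 7 of 19 were hosts, with Amotl2 at 4 members up to 105.3 and Tead1 at 4 up to 41.2. The other lists were lower, at 3 of 14 for smooth muscle and pericyte, 4 of 18 for fibroblast and matrix, 3 of 12 for macrophage and leukocyte, 2 of 14 for neuron, 1 of 9 for erythroid, 1 of 12 for liver and 0 of 10 for epicardium. Their leading hosts were Mylk with 6 members and Smtn with 3, Fbn1 with 3 and Fbln2 with 2, Cx3cr1 with 10 and Spi1 with 1, Rbfox3 and Syt4 with 2 each, Ank1 with 1 and Ttr with 1. The smooth muscle, fibroblast and macrophage shares were 21.4, 22.2 and 25%, above the 12% of all genes. The neuron, erythroid and liver shares were 14.3, 11.1 and 8.33%. The median summed intron length per gene was 19.1 kb in the sarcomere list and 72.4 kb for calcium handling. It was 38.1 kb for the endothelial list and 427.4 kb for the neuron list. The part of intron length in the shares was not tested.

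**Figure D5:**
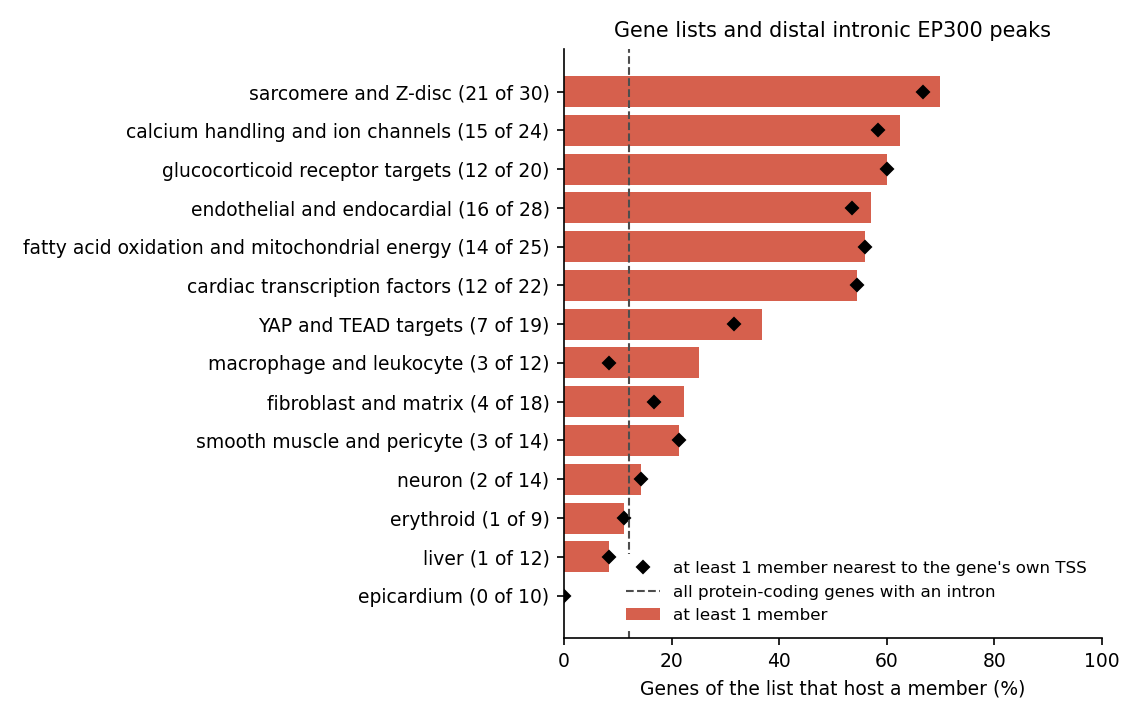
Share of genes in each list (percent) that host at least 1 member, with the share counting only members whose nearest gene is the host, and a dashed line at the 12% of all genes with an intron. Sarcomere genes stand highest at 70%, and the epicardium list stands at 0.

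Defining markers of heart muscle and endothelium had more hosts than those of other cell types. Of 7 cardiomyocyte markers 6 hosted a member, 46 members in all, and of 6 endothelial markers 4 did, with 13. Among 5 smooth muscle and pericyte, 4 epicardial, 4 macrophage and 4 erythroid markers none was a host. Of 5 fibroblast markers 1 was a host, Dcn, with 1 member, of 3 neuron markers 1, Rbfox3, and of 3 liver markers 1, Ttr. Over all 19465 protein-coding genes with an intron the share was 12%, and sets of 4 or 5 markers are too small to tell 0 from it. Counting peaks of any class nearest to the marker, 7 of 7 cardiomyocyte, 6 of 6 endothelial, 3 of 5 fibroblast and 1 of 4 epicardial markers had one. The smooth muscle, macrophage and erythroid markers had none. Between the 142 members hosted by the sarcomere and calcium handling lists and the 57 hosted by the endothelial list no motif of 35 was called, a share of 0%, and 1 had an unadjusted p under 0.05 by Fisher's exact test. It was the ETS site CAGGAAG, in 14.8% of the members in heart muscle genes and 28.1% of those in endothelial genes (odds ratio 0.445, p = 0.0427, adjusted p = 0.649, Fisher's exact test).

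The host was also the nearest gene for most members, and the exceptions include heart genes. For 4352 members, or 85.0% (95% exact interval 84.0 to 85.9%), the nearest protein-coding TSS belonged to the host, and for 770 to another gene. Without the 34 members hosted by very long models alone the share was 85.5%. The same share over all intronic bases at these distances was not computed, so it cannot be read as a property of the peaks. Among the 770 were the strongest members in Klf13, Gas7 and Sdk2. They were nearest to E030018B13Rik, Rcvrn and Cdc42ep4, at 19791, 27477 and 55398 bp. Cep85l held 8 members, and the nearest gene of all 8 was Pln, which encodes phospholamban, the inhibitor of the calcium pump of the sarcoplasmic reticulum. Their signals ranged from 10.5 to 147.4 at 2215 to 31568 bp from the Pln start site. The strongest had 80.7 in replicate 1 and 74.2 in replicate 2.

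Of the 3 hosts in the macrophage list, Cx3cr1 and Spi1 were not the nearest gene of any of their members. Cx3cr1, a chemokine receptor, is annotated over 168.3 kb, and of its 10 members 5 were nearest to Xirp1, an actin-binding protein of intercalated discs, and 5 to Csrnp1. The strongest, of signal 79.8, lay 7324 bp from the Xirp1 start site. The single member in Spi1, the gene of the myeloid factor PU.1, had a signal of 49.1 and lay 5390 bp from the start site of Mybpc3, cardiac myosin binding protein C. Counting members nearest to their own host, the macrophage list stood at 1 of 12, or 8.33%, against 10.5% of all genes, and the sarcomere list stood at 20 of 30. Nearness is a rule of distance, and no link between a peak and a gene was measured. Cep85l was named after its values were seen.

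At the edges of the rule the values were ordinary. The member nearest to a TSS, in Crip1 at 1002 bp, had a signal of 12.6, and the intronic peak just outside, in Prickle1 at 998 bp, had 31.1. The farthest member, in Itpr2 at 99974 bp, had 32.6, and the intronic peak just beyond, in Rabgap1l at 100034 bp, had 20.1. Members lay a median of 16046 bp from the nearest TSS, with quartiles of 6014 and 35054 bp, and 22914 bp for intergenic peaks. Had the host's own exons alone been barred, 36 peaks in exons of other genes would have been added, and 210 members lay in more than 1 host.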

How the data were processed

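EP300 ChIP-seq of newborn mouse heart was analysed from peak lists that the authors had made on mm10. Replicate 1 and the pooled reads were each called against 2 control files and replicate 2 against 1, per the file headers, and the optimal and conservative lists were taken from these by irreproducible discovery rate (IDR). No aligner, peak caller or IDR threshold is named in the sources used here. The deposited signal is the authors' height of each peak over control, by a formula that is not stated, and served to order peaks inside 1 list. The deposited −log10 q is the caller's, and the deposited score is a scaled IDR of at most 1000, which was not used for any value here. The files hold no read counts, so the depth is unknown, and intervals cover counting error only.

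Summits were placed on the GRCm38 sequence with the GENCODE M21 annotation. Densities divide peaks by the bases that meet the same positional rule, without runs of unknown bases. Exact (Clopper-Pearson) intervals of 95%, two-sided Fisher's exact tests and exact sign tests were computed, with Benjamini-Hochberg adjustment over 35 motifs and a threshold of 0.05. Motif and test code was tested on simulated data. Tools were SciPy 1.17.1, matplotlib 3.10.9, pandas 2.3.3, numpy 2.4.6 and Python 3.11.15.

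Named are the hosts of the 10 strongest members, the 10 hosts with most members and the 2 hosts with most members in each of 14 gene lists, of which 258 of 260 entries matched the annotation. An item that this rule names is not reported here. Other genes were chosen after their values were seen. The members, gene lists and motifs were chosen with earlier results of these data known. Alternatives were the conservative list, a −log10 q of at least 2, each replicate left out, merged sites, other promoter distances, TSS and exon sets, other windows, and subsets by distance, signal and repeats. Those by nearest host, gene models, noncoding start sites and some distances were chosen after seeing the data.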

Additional observations from a re-analysis of the deposited data

How the results depend on the processing

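The number of motifs called at summits against flanks was 21 to 25 in all 14 alternatives. No paired analysis was possible because there is only 1 group, whose 2 replicates have no counterparts in another group. The share of peaks that are distal intronic was 29.4 to 32.0% with 1 replicate left out, 30.9% for merged sites and 27.4% with promoters of 2 kb. The density ratio of introns to intergenic DNA was 1.20 to 1.25 with 1 replicate left out, 1.14 for peaks with a −log10 q of at least 2 and 1.61 with the TSSs of all transcripts. The ratio of first to later introns was 1.31 to 1.33 with 1 replicate left out and 1.23 at a −log10 q of at least 2. With the TSSs of all transcripts the share of members nearest to their host was 67.9%, and the comparison of noncoding start sites gives no value, since the rule then bars them. The odds ratio for the highest quintile of signal, members against intergenic peaks, was 0.863 to 0.894 with 1 replicate left out, and missed the threshold at 0.887 for a −log10 q of at least 2 and at 0.862 for 1 to 10 kb. For first against later introns it passed the threshold with 1 replicate left out, at 0.822 to 0.834, and at 0.844 with the most upstream transcript. The odds ratio for both replicates, members against intergenic peaks, missed it at 0.939 in the conservative list, 0.939 at a −log10 q of at least 2, 0.930 with longer replicate lists and 0.963 for 10 to 100 kb. For first against later introns it missed it at 0.876 (−log10 q of at least 2) and 0.961 (10 to 100 kb). The 7 motifs called between members and intergenic peaks became 2 in the conservative list, 2 at a −log10 q of at least 2, 3 to 3 with 1 replicate left out, 4 for merged sites, 1 with the TSSs of all transcripts, 4 in 100 bp windows, 2 above the median signal, 2 for 1 to 10 kb, 3 for 10 to 100 kb and 4 without noncoding start sites. The 14 motifs called between quintiles became 3 at a −log10 q of at least 2, 9 for merged sites and 7 to 10 with 1 replicate left out. In the first of these the ETS site CAGGAAG and the AP-1 site turned direction, with odds ratios of 0.881 and 0.941. The cause of these changes was not tested, and neither was the part of the smaller number of peaks in some subsets. The odds ratio of the CREB site between quintiles with promoters of 2 kb gave no value because the weakest quintile held 0. For single motifs at summits against flanks, 326 values kept their direction and call, and 24 kept their direction and missed the threshold. For members against intergenic peaks these numbers were 53 and 52. Between quintiles they were 76 and 33, with 2 reversed. Of the shares of hosts in gene lists and over all genes, 28 stayed within the interval of the reported share and 2 moved out of it. Over all genes, the share of hosts was 9.71% in the conservative list. The unknown depth, the common biosample and the unequal control files limit what the replicates can show.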
